A study of Homo sapiens with 24 samples.

Results

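AGO2-bound RNA of LNCaP cells given miR-203 was compared with AGO2-bound RNA of LNCaP cells given a scramble control, on 6 of the 24 arrays of the series. LNCaP is an established line of androgen-responsive human prostate cancer cells. The members were the 3 arrays labelled as AGO2-RNA after miR-203 and the 3 labelled as AGO2-RNA after the scramble microRNA. Each culture had been nucleofected (electroporated) with 2.5 µg of plasmid, and AGO2 was then immunoprecipitated with an antibody and its RNA extracted. The labels give no time between transfection and harvest in the sources used here, and they name neither the arm nor the gene copy of miR-203 that the plasmid carried. Total RNA after miR-203 and after scramble (3 arrays each) was used where a result is set against it. So was AGO2-bound RNA after miR-205 and miR-130a (3 arrays each). The labels do not tie the total RNA arrays to the transfections of the AGO2 arrays. Each array received 2 µg of RNA. The arrays of a group are labelled biological replicates but are tied to no separate cultures, so a p-value here covers the spread among those arrays and nothing wider.

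Argonaute proteins hold a microRNA and use it as a guide to messenger RNAs, chiefly in their 3 prime untranslated regions. The match rests mainly on the seed, bases 2 to 8 of the microRNA. AGO2 binds such a messenger and recruits factors of the TNRC6 family, after which its translation is repressed and its poly(A) tail is removed. RNA that comes down with AGO2 is therefore used to look for direct targets, and a target may be more abundant with AGO2 while its total level falls. miR-203 is abundant in skin, where it promotes exit of keratinocytes from the cell cycle, and it is often silenced in tumours.

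The mature microRNAs of the human miR-203 and miR-205 genes are shown because their seeds set which messengers each can guide AGO2 to. Sequences are from RefSeq on GRCh38.p14, with the seed in capitals.
miR-203a-3p (chr14:104117469-104117490, plus strand): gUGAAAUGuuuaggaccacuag
miR-203a-5p (chr14:104117431-104117455, plus strand): aGUGGUUCuuaacaguucaacaguu
miR-203b-3p (chr14:104117428-104117450, minus strand): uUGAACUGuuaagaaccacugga
miR-205-5p (chr1:209432166-209432187, plus strand): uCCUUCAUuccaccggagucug
The seeds of miR-203a-3p and miR-203b-3p differ, and a transcript pairs with the miR-203a-3p seed where it holds CAUUUCA. The precursor hairpin of MIR203A spans 110 bases (chr14:104117405-104117514, plus strand), with the mature 3p arm in capitals.
MIR203A hairpin: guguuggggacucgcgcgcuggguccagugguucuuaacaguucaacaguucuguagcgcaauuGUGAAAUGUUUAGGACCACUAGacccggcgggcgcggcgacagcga
Matches to the seed in transcripts were not analysed here.

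The values were log2 expression per probe set, and 6782 genes were tested after a filter on dim probe sets. The lowest value was 2.346843 on the 3 miR-203 arrays and 2.347327 on the 3 scramble arrays, so the 2 groups may come from different normalization runs. An offset between runs and the effect of miR-203 cannot be told apart in this comparison. In AGO2-bound RNA the lowest value was 2.347327 on the miR-205 arrays and 2.344895 on the miR-130a arrays. The contrasts of miR-203 with these groups therefore carry the same limit. Between 40.7% and 41.5% of probe sets lay within 0.05 of the lowest value on these 6 arrays, which compresses changes of dim transcripts. The 3 prime minus 5 prime difference of GAPDH, a measure of RNA quality, was 0.77 ± 0.15 (SD, n = 3) after miR-203 and 1.40 ± 0.17 (SD, n = 3) after scramble, with ranges of 0.60 to 0.89 and 1.23 to 1.57 that did not overlap. That of ACTB was 2.68 ± 0.34 against 3.40 ± 0.45, and the mean of spiked control probe sets was 6.94 ± 0.31 against 7.14 ± 0.40 (SD, n = 3 each). In AGO2-bound RNA the GAPDH difference was 1.55 (range 1.38 to 1.72) after miR-205 and 1.25 (range 1.20 to 1.30) after miR-130a. The miR-203 arrays thus lay below all other AGO2 groups on this measure. In total RNA it was 0.78 after miR-203 and 0.77 after scramble. For ACTB the means were 3.45 after miR-205 and 2.55 after miR-130a, the latter below that after miR-203. The part of RNA quality in the changes below was not tested.

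Luminal prostate markers checked the label. STEAP1, KLK3 and FOXA1 were each above 10 on all 6 arrays. Of 14 listed luminal markers 11 were named on the array and 10 passed the filter. After miR-203, 4 of these 10 were higher (40%, beside 22.7% of all genes) and 3 lower (30%, beside 28.8%). Of 12 markers of the PC-3 or DU145 lines, 10 were named on the array and none of them passed the filter. Of 12 basal keratinocyte markers, 7 were named there and only SFN passed, at 3.42 to 4.21. TRPM8 lay below the filter.

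AGO2-bound RNA differed widely between miR-203 and scramble. Of 6782 genes, 1537 were higher (22.7%) and 1950 lower (28.8%) after miR-203, so 51.4% passed the limma test at an adjusted p under 0.05. At least 2-fold, 686 genes were higher (10.1%) and 633 lower (9.33%). At least 8-fold, 37 were higher (0.546%) and 21 lower (0.31%). All 3 miR-203 arrays lay above all 3 scramble arrays for 1817 genes (26.8%) and below them for 2269 (33.5%). The median change of all genes was -0.09, so the changes of lists below are read beside that value. In RNA from whole cultures, a change per cell and a change in the share of cells that hold a transcript cannot be told apart.

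The largest rise was that of GTF2H5, a small subunit of the transcription and repair factor TFIIH. Its log2 levels were 11.34, 11.69 and 11.08 after miR-203 and 6.41, 6.43 and 6.23 after scramble, a rise of 5.01 ± 0.21 (32.2-fold, limma adjusted p = 1.7e-09). All 3 miR-203 arrays stood far above the scramble arrays, which lay close together. ETHE1, a mitochondrial sulfur dioxygenase, was at 8.76, 8.94 and 7.96 against 3.59, 3.76 and 3.59, a rise of 4.91 ± 0.21. PEX16, which inserts proteins into the peroxisome membrane, was at 8.67, 8.97 and 8.36 against 4.34, 4.31 and 3.90, a rise of 4.49 ± 0.19. TFDP2, a dimer partner of E2F transcription factors, was at 7.32, 8.36 and 7.70 against 3.42, 3.27 and 3.46. Its rise of 4.41 ± 0.21 came from a level near the floor of the scale. NDUFV1, a core subunit of respiratory complex I, was at 11.17, 11.57 and 10.93 against 7.17, 6.69 and 6.67, a rise of 4.38 ± 0.25. The groups did not overlap for any of these genes.

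The next rises were of the same order. MRPL4, a mitochondrial ribosomal protein, rose by 4.15 ± 0.23 and METTL18, a histidine methyltransferase, by 4.06 ± 0.20. ARPC1B, a subunit of the actin-nucleating ARP2/3 complex, rose by 4.06 ± 0.18. ITFG1 rose by 3.90 ± 0.19, and IFITM2, an antiviral membrane protein induced by interferon, by 3.89 ± 0.21. IFITM2 and IFITM3 are near-identical in sequence, so their probe sets may share signal and the split between them is uncertain. Of the 10 genes, 3 moved past the threshold in total RNA in the same direction (METTL18, TFDP2 and IFITM2), by 0.42, 0.78 and 0.69. Another 3 moved past it in the opposite direction, with total RNA changes of -0.34 for GTF2H5, -0.45 for ARPC1B and -0.32 for NDUFV1. Without total scramble replicate 1 the total RNA change of NDUFV1 did not pass the test. TMEM259, at 2.87, 2.51 and 2.75 against 2.38, 2.35 and 2.36, was the only called gene with a group at the floor, so its change of 0.35 ± 0.12 is given without a fold.

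The largest fall was that of PFDN2, a subunit of the prefoldin chaperone that hands new actin and tubulin to the TRiC folding chamber. Its levels were 7.28, 6.88 and 7.10 after miR-203 and 11.43, 11.79 and 11.89 after scramble and fell by 4.62 ± 0.19 (24.5-fold lower, limma adjusted p = 1.7e-09). CCNG1, a cyclin induced by p53, was at 9.24, 8.78 and 9.23 against 13.30, 13.51 and 13.34 and fell by 4.30 ± 0.17. ANXA4, a calcium-dependent membrane-binding annexin, was at 6.07, 6.14 and 6.15 against 10.14, 10.21 and 10.12 and fell by 4.03 ± 0.16. Arrays of one group differed by under 1 for each of these genes, and the groups lay far apart. SMIM7 fell by 3.95 ± 0.19, and RPL11, a ribosomal protein of the large subunit that also binds MDM2, by 3.93 ± 0.19. TNFAIP8 fell by 3.74 ± 0.24, TMEM126B, a complex I assembly factor, by 3.73 ± 0.19 and the sorting nexin SNX7 by 3.69 ± 0.23. DNPH1, a nucleotide hydrolase, fell by 3.67 ± 0.28, and STAM, which sorts ubiquitinated receptors on endosomes, by 3.55 ± 0.15.

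The rises and falls differed in how miR-203 stood against the other 2 microRNAs. These contrasts leave out the scramble means, though the scramble arrays share in the estimate of the spread. The genes were picked by their change against scramble, and the same miR-203 arrays enter here. Rises picked for high miR-203 values are thus favoured to stand above the other groups, and falls below them, so this is no separate support. Each of the 10 rises was higher after miR-203 than after both miR-205 and miR-130a (limma adjusted p under 0.05), by 1.95 to 5.95 against miR-205 and by 2.24 to 5.71 against miR-130a. Of the 10 falls, 4 were lower than after both (ANXA4, TNFAIP8, RPL11 and DNPH1) and 1 was higher than after both (STAM). CCNG1, TMEM126B and SNX7 passed the test against neither. CCNG1 stood at a mean of 9.08 after miR-203, 8.95 after miR-205 and 9.24 after miR-130a, with 13.38 after scramble. SNX7 stood at 3.76 after miR-205, 4.07 after miR-130a and 7.69 after scramble, and its miR-203 arrays lay between 3.91 and 4.12. Among all genes, 25.5% were higher and 27.9% lower after miR-203 than after miR-205, and 26% higher and 29% lower than after miR-130a. A possible offset between normalization runs and the lower GAPDH difference of the miR-203 arrays bear on these contrasts too.

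**Figure D1:**
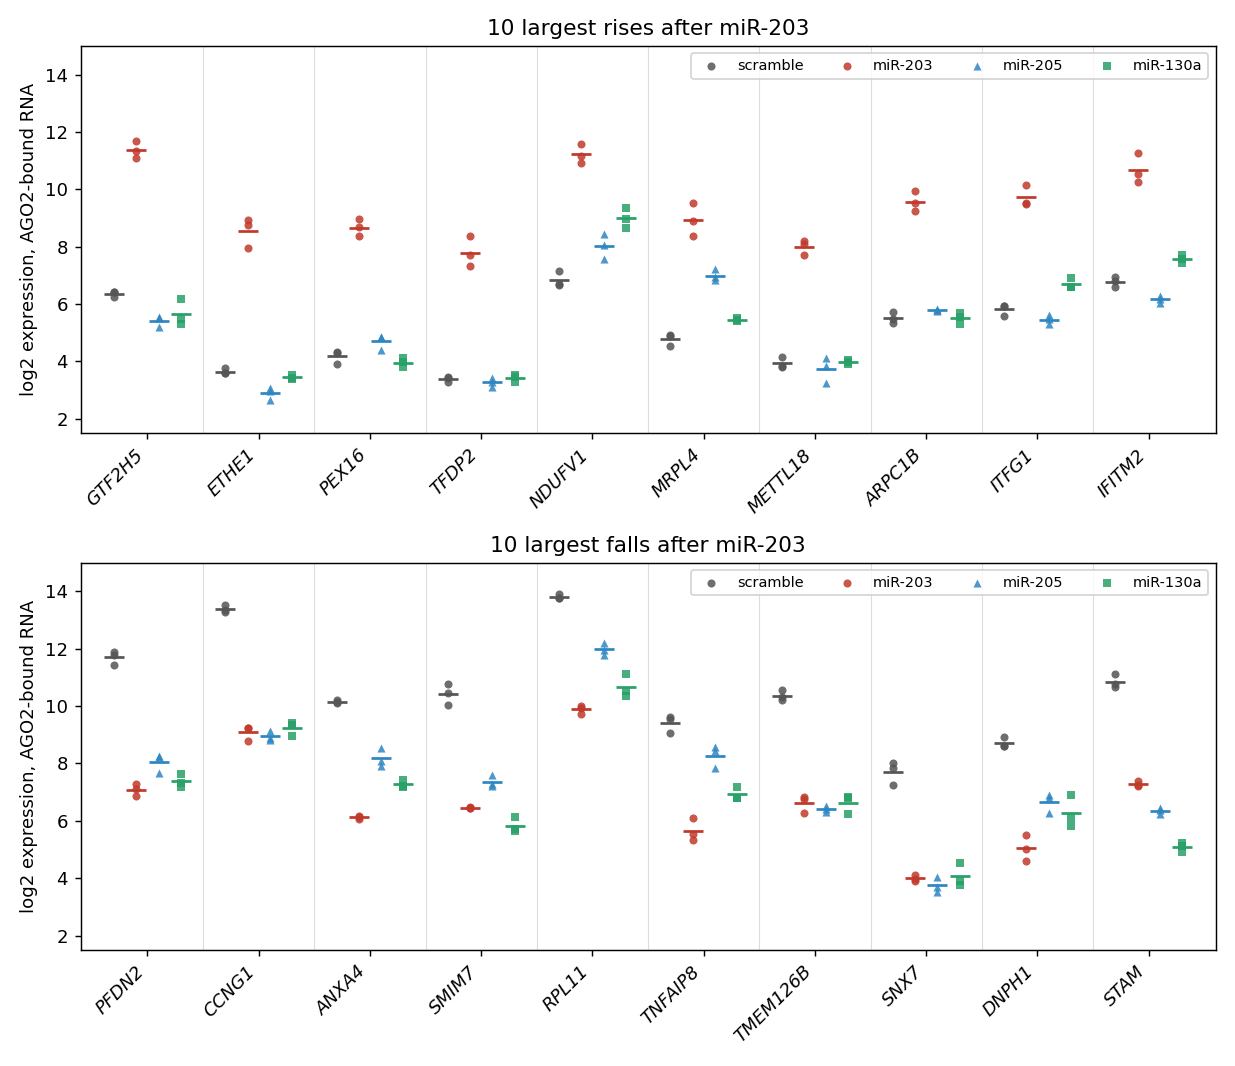
Log2 expression in AGO2-bound RNA (vertical axis) of the 10 largest rises (upper panel) and the 10 largest falls (lower panel) after miR-203, with 1 point per array, 3 arrays per group and a bar at each group mean. The miR-203 points stand above all other groups for the rises, while for CCNG1, TMEM126B and SNX7 they lie among those of miR-205 and miR-130a.

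Reported targets of miR-203 did not move one way in AGO2-bound RNA. The list was written from general knowledge of the literature, with no source list, as was that of let-7 targets. Of its 30 genes, 27 were named on the array and 18 were tested, of which 6 were higher (33.3%, beside 22.7% of all genes), 3 lower (16.7%, beside 28.8%) and 9 not called. The median change was -0.02, and between -0.08 and 0.07 when single arrays were left out. With the replicate number as a block, 5 were lower. MYD88, the adaptor of Toll-like receptors, was at 9.05, 9.20 and 9.01 after miR-203 and 7.79, 7.71 and 7.56 after scramble, a rise of 1.40 ± 0.14 (limma adjusted p = 2.3e-06). LASP1, an actin-binding focal adhesion protein, was at 7.86, 7.87 and 8.16 against 7.25, 7.21 and 7.07, a rise of 0.79 ± 0.13. In total RNA both went the other way, with MYD88 lower by -1.16 ± 0.12 and LASP1 by -2.19 ± 0.11.

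The other reported targets that were higher moved by at most about 1. BCL2L2, an inhibitor of apoptosis, was at 6.79, 6.66 and 6.72 against 5.70, 5.68 and 5.66, a rise of 1.05 ± 0.15. CREB1, the cyclic AMP response factor, rose by 0.78 ± 0.22, the DNA damage kinase ATM by 0.70 ± 0.14 and the nuclear transport GTPase RAN by 0.68 ± 0.21. The calls of CREB1 and RAN were lost without scramble replicate 2, that of RAN also without miR-203 replicate 1, and those of ATM and RAN with the mean of probe sets. The 2 further probe sets of ATM, at 0.06 and -0.16, did not pass the test (limma adjusted p = 0.64 and 0.62). The rise of ATM thus rests on 1 dim probe set, at 3.32 to 3.65 against 2.69 to 2.84. IGF1R, the receptor of insulin-like growth factor, was at 5.24, 5.72 and 6.08 against 6.73, 7.39 and 7.42 and fell by 1.5 ± 0.30. The spindle protein CKAP2 fell by 1.04 ± 0.21 and ASAP1, an ARF GTPase activator, by 0.77 ± 0.16.

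The reported targets that did not pass the test against scramble ranged from -0.41 to 0.24. SRC was at -0.41 ± 0.17, TBK1 at -0.36 ± 0.17, SNAI2 at -0.31 ± 0.20, ZNF217 at -0.29 ± 0.25 and E2F3 at -0.23 ± 0.19. ABL1 was at -0.04 ± 0.13, BIRC5 at 0.00 ± 0.35, AKT2 at 0.13 ± 0.12 and VEGFA at 0.24 ± 0.15. AKT2 lay near the floor in both groups. With the replicate block SRC and TBK1 passed as lower (limma adjusted p = 0.023 and 0.030), and SRC also passed without scramble replicate 3, at -0.64. Of the 18 genes, MYD88, BCL2L2 and ATM were higher after miR-203 than after both other microRNAs. So was 1 more, SNAI2, which did not differ from scramble. Among all 6782 genes, 1120 were higher than after both.

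Of the reported let-7 targets, most were lower after miR-203. The let-7 microRNAs are abundant in differentiated cells, restrain proliferation and share 1 seed. All 9 distinct mature sequences of the family in RefSeq, miR-98 included, carry the seed in capitals, and 4 of them are shown to make the shared seed visible.
let-7a-5p (MIRLET7A1, chr9:94175962-94175983, plus strand): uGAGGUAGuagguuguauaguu
let-7d-5p (chr9:94178841-94178862, plus strand): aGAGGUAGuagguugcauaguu
let-7g-5p (chr3:52268336-52268357, minus strand): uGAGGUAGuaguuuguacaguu
miR-98-5p (chrX:53556299-53556320, minus strand): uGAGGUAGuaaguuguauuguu
The seed of miR-203a-3p differs from it. Of 15 reported let-7 targets tested, 11 were lower after miR-203 and 0 higher at an adjusted p under 0.05, with a median change of -0.73 against -0.09 for all genes. The lower share of 73.3% stood beside 28.8% of all genes. In total RNA 5 of them were higher and 2 lower, with a median of -0.02, beside 19.8% of all genes each way. The change in AGO2-bound RNA was below that in total RNA for 8 and above it for 1 (limma, difference of changes). Among all genes it was below for 27% and above for 22.1%. Without the filter the list had 21 genes, 9 of them lower, with a median of -0.48, and leaving out single arrays gave 9 to 12 lower. With the replicate block 13 were lower, with ARID3A and BACH1 in addition (limma adjusted p = 0.0015 and 0.041).

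The falls among let-7 targets were about 2-fold or less, apart from IGF1R, which both target lists hold. HIC2, a transcriptional repressor, was at 5.89, 6.30 and 6.52 after miR-203 and 7.06, 7.49 and 7.29 after scramble and fell by 1.04 ± 0.18. CDC34, a ubiquitin-conjugating enzyme, was at 8.35, 8.33 and 8.14 against 9.32, 9.34 and 9.21 and fell by 1.02 ± 0.13 (limma adjusted p = 2.9e-05). DICER1, the enzyme that cuts microRNA precursors, was at 8.40, 8.34 and 8.81 against 9.35, 9.40 and 9.79 and fell by 1.00 ± 0.26, while total RNA rose by 0.53 ± 0.12. The groups did not overlap for any of these 3 genes. The phosphatase CDC25A, which the cell cycle list also holds, fell by 1.00 ± 0.26, PLAGL2 by 0.91 ± 0.18, ARID3B by 0.73 ± 0.20, the chromatin protein HMGA1 by 0.73 ± 0.16, IGF2BP3 by 0.70 ± 0.23, E2F6 by 0.48 ± 0.17 and CCND1 by 0.44 ± 0.13. ARID3A was at -0.58 ± 0.24, BACH1 at -0.35 ± 0.33, RRM2 at -0.25 ± 0.35 and THBS1 at 0.05 ± 0.44, and none of these 4 passed the test without the block. ARID3A also passed without miR-203 replicate 3 or scramble replicate 1. The calls of E2F6 and IGF2BP3 were lost without any single one of miR-203 replicate 2 and scramble replicates 1 and 2, and that of E2F6 also without miR-203 replicate 1. With the mean of probe sets those of HMGA1 and IGF2BP3 were lost. Set directly against the other microRNAs, 7 of 15 were lower after miR-203 than after miR-205. Likewise 7 were lower than after miR-130a, with 4 lower than both. Among all genes 27.9% were lower than after miR-205 and 29% lower than after miR-130a, with 919 of 6782 lower than both.

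**Figure D2:**
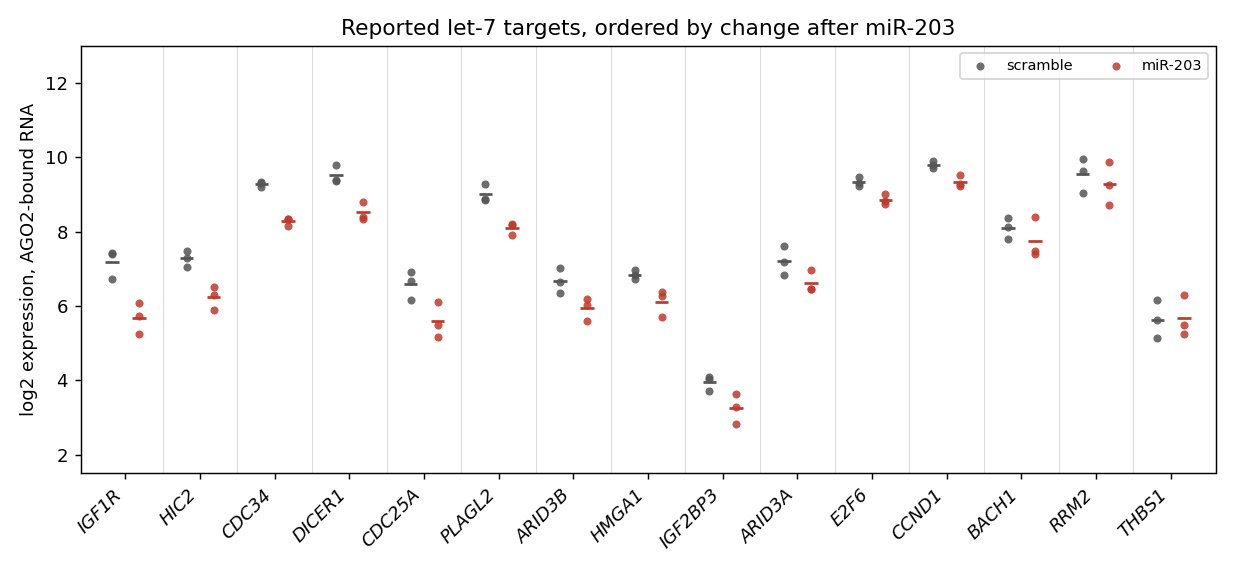
Log2 expression in AGO2-bound RNA (vertical axis) of the 15 tested reported let-7 targets after scramble and after miR-203, with 1 point per array, 3 arrays per group and a bar at each group mean, ordered by the change. The miR-203 points lie below the scramble points for the genes from IGF1R to IGF2BP3 and for E2F6 and CCND1, and the groups overlap for ARID3A, BACH1, RRM2 and THBS1.

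Fewer interferon response genes passed as higher in AGO2-bound RNA than in total RNA. Type I interferon, which infected cells release, induces these genes in the cell itself and its neighbours. Of 36 tested, 17 were higher (47.2%, beside 22.7% of all genes), 2 lower (5.56%, beside 28.8%) and 17 not called, with a median change of 0.51. The median was 0.27 over 45 genes without the filter and 1.45 over 14 genes at a filter of log2 5. In total RNA 30 of the 36 were higher and none lower, with a median of 1.43, beside 19.8% of all genes each way. The change in AGO2-bound RNA was smaller than that in total RNA for 22 and larger for 4, beside 27% and 22.1% of all genes. The list median over the scramble mean was 0.42, 0.80 and 0.11 on miR-203 replicates 1, 2 and 3 and -0.01, 0.01 and 0.00 on the scramble arrays, so the miR-203 arrays lay further apart from each other. After miR-130a it was 2.85 and after miR-205 -0.22.

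Transcripts of the antiviral IFIT proteins, which bind foreign RNA, were among those that rose. IFIT1 was at 6.23, 6.80 and 5.51 after miR-203 and 2.82, 3.60 and 3.94 after scramble, a rise of 2.73 ± 0.31 (limma adjusted p = 7.6e-06), against 5.17 ± 0.09 in total RNA. IFIT3 rose by 2.44 ± 0.34 against 4.86 ± 0.13 in total RNA, and IFIT2 by 1.51 ± 0.23 against 4.93 ± 0.11. OASL, a relative of the oligoadenylate synthetases, was at 7.06, 7.74 and 6.05 against 2.93, 3.16 and 3.35, a rise of 3.80 ± 0.30 against 5.10 ± 0.14. The chemokine CXCL10 rose by 1.16 ± 0.24 against 4.48 ± 0.09. On each of these genes miR-203 replicate 2 was the highest and replicate 3 the lowest array of its group.

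IFITM3 and IFITM2 stood apart from this order. IFITM3 was at 11.53, 12.07 and 11.23 after miR-203 and 7.74, 7.61 and 7.91 after scramble, a rise of 3.86 ± 0.18, against 0.72 ± 0.10 in total RNA. HERC6, a ubiquitin ligase, rose by 2.48 ± 0.23 against 0.49 ± 0.14, and PARP12 by 1.92 ± 0.26 against 0.46 ± 0.14. These are the 4 members whose AGO2 change exceeded the total RNA change. All 4 were also higher than after miR-130a, by 1.04 to 3.25.

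IFI6, a mitochondrial interferon-induced protein, went the other way. It was at 5.58, 6.12 and 3.71 after miR-203 and 8.47, 8.78 and 7.51 after scramble and fell by 3.12 ± 0.52, while total RNA rose by 1.89 ± 0.10. EIF2AK2, the double-stranded RNA kinase PKR, fell by 1.22 ± 0.15, from a mean of 4.20 to 2.98. Its other probe set was at -0.07 and did not pass the test (limma adjusted p = 0.77), so this fall rests on 1 probe set. RSAD2 rose by 3.55 ± 0.12 in total RNA and stood at 2.40 on all 3 miR-203 arrays in AGO2-bound RNA, close to the floor. DHX58 and IFNB1 lay at the floor in both groups, and RSAD2, IFI27 and CXCL11 at the floor after scramble, so no fold is given for them.

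The promoters of IFIT1 and IFI6 are shown because both genes rose in total RNA and moved in opposite directions in AGO2-bound RNA. Each window runs from 250 bases before to 50 after the start, read 5 prime to 3 prime on the gene's strand, with matches to a motif of the interferon-stimulated response element type on either strand in capitals. The motif searched was GAAA, then any 2 bases, then GAAA.
IFIT1 promoter (chr10:89392373-89392672, plus strand): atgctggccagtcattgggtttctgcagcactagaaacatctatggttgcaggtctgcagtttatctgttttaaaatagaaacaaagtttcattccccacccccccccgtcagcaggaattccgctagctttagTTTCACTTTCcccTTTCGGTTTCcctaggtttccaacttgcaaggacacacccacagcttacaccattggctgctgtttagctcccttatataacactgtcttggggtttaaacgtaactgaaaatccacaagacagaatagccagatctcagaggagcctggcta
IFI6 promoter (chr1:27672143-27672442, minus strand): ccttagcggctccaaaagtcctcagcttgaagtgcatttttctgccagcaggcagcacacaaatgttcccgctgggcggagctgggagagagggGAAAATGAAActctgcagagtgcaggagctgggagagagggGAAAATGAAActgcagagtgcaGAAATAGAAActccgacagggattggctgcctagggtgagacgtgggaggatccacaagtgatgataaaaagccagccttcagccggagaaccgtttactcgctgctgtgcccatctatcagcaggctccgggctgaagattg
IFIT1 has 2 matches and IFI6 has 3, with overlapping matches counted. The motif was found in 19 of 29 tested interferon genes with a window (65.5%), in 3.88% of tested genes with a window and in 3.57% of all 35116 windows. A match describes the letters of the window and not a bound site.

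**Figure D3:**
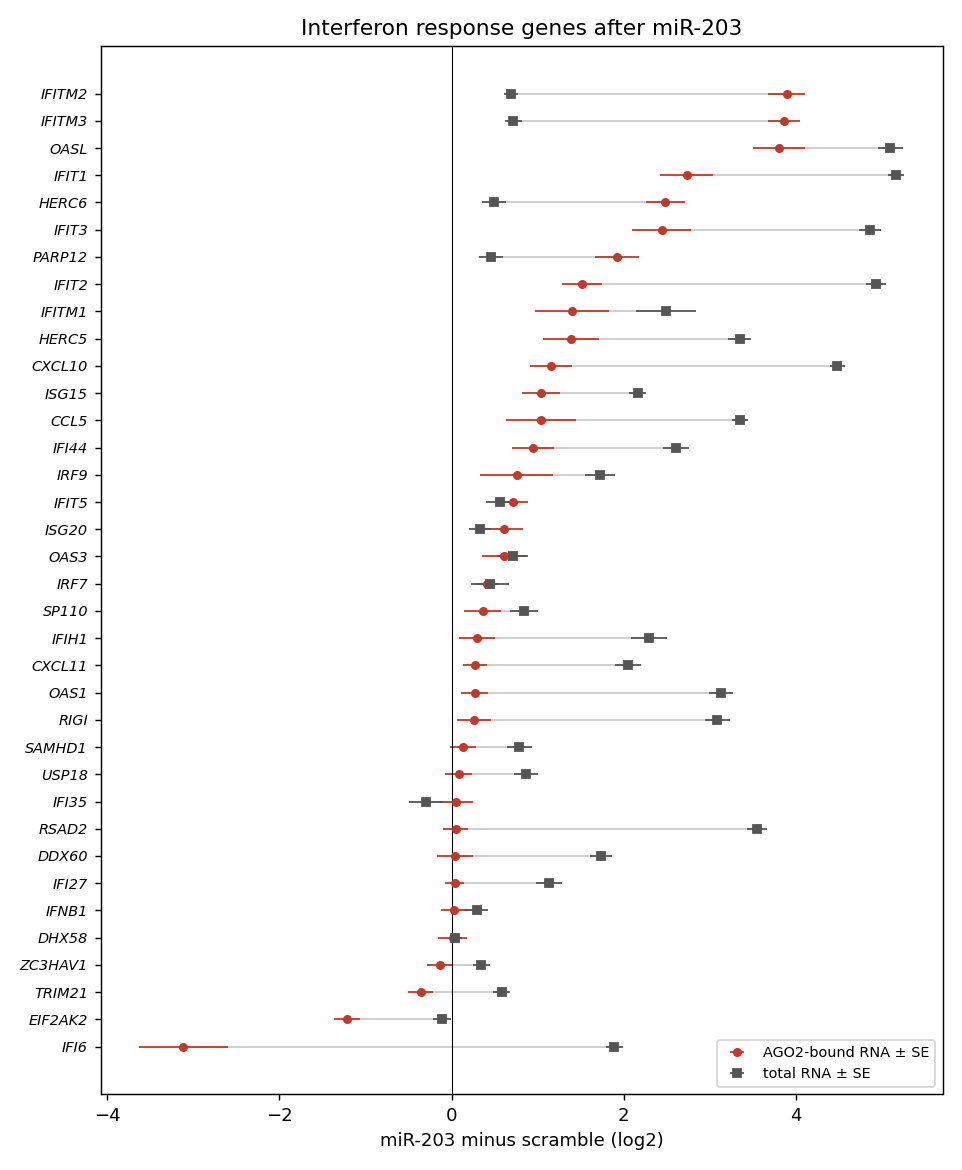
Change after miR-203 against scramble (horizontal axis, log2 difference ± SE from limma, 3 arrays against 3) of the 36 tested interferon response genes in AGO2-bound RNA (circles) and total RNA (squares). Most squares lie to the right of their circles, IFITM2, IFITM3, HERC6 and PARP12 have the circle far to the right of the square, and IFI6 has its circle at -3.12 and its square at 1.89.

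Beyond the interferon list, changes in AGO2-bound and total RNA were often unlike. The AGO2 change was above the total RNA change for 1500 genes (22.1%) and below it for 1829 (27%), in a limma contrast over all 24 arrays in which an offset equal in both kinds of RNA would cancel. In total RNA alone 19.8% were higher and 19.8% lower. Of the 1537 genes higher with AGO2, 380 (24.7%) were lower in total RNA, which is 28.3% of the 1342 genes lower there, and 291 were higher in both. Of the 1950 genes lower with AGO2, 406 (20.8%) were higher in total RNA, which is 30.2% of the 1345 genes higher there, and 401 were lower in both. The total scramble array of replicate 1 stood apart on the 3 prime minus 5 prime difference of GAPDH, at 0.99 against 0.68 and 0.64. Without it the AGO2 change was above the total RNA change for 1414 genes and below it for 1779.

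The largest excesses over total RNA included CHCHD3, a scaffold of mitochondrial cristae. CHCHD3 was at 8.97, 8.89 and 9.01 in AGO2-bound RNA after miR-203 and 5.50, 5.48 and 5.17 after scramble, and at 3.91, 4.18 and 4.35 against 5.81, 5.80 and 5.80 in total RNA. It rose with AGO2 by 3.57 ± 0.18 and fell in total RNA by 1.66 ± 0.12, a difference of 5.23 ± 0.22 (limma adjusted p = 1.8e-14), and the groups overlapped in neither kind of RNA. The other 4 of the 5 largest excesses, GTF2H5, ETHE1, NDUFV1 and ARPC1B, differed by 5.35, 5.07, 4.70 and 4.51. Further genes higher with AGO2 and lower in total RNA were picked after their values were seen. COX6A1, a subunit of cytochrome c oxidase, rose by 1.85 ± 0.13 with AGO2 and changed by -2.40 ± 0.15 in total RNA. The heme oxygenase HMOX2 had changes of 2.33 and -1.61, the kinase MAPKAPK3 of 1.60 and -1.56 and APPBP2 of 1.51 and -1.68. Further probe sets of APPBP2 rose less with AGO2, by 0.58 and 0.11, and the latter did not pass the test (limma adjusted p = 0.57).

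The opposite pattern was led by IFI6, with a difference of -5.01 ± 0.56. CCNG1 (-4.92), PFDN2 (-4.86), ANXA4 (-4.71) and TMEM126B (-4.19) followed. CCNG1, ANXA4 and TMEM126B rose in total RNA by 0.62, 0.68 and 0.47. STAMBP, a deubiquitinase of endosomal sorting, was at 5.64, 5.66 and 5.93 with AGO2 after miR-203 and 8.12, 8.67 and 8.46 after scramble. In total RNA it was at 5.86, 5.80 and 5.91 against 4.80, 4.54 and 4.29. STAMBP, CDC37L1, MED1 and GRAMD2B, picked after their values were seen, had AGO2 changes of -2.67, -1.60, -1.30 and -1.30, with rises of at least 1 in total RNA.

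**Figure D4:**
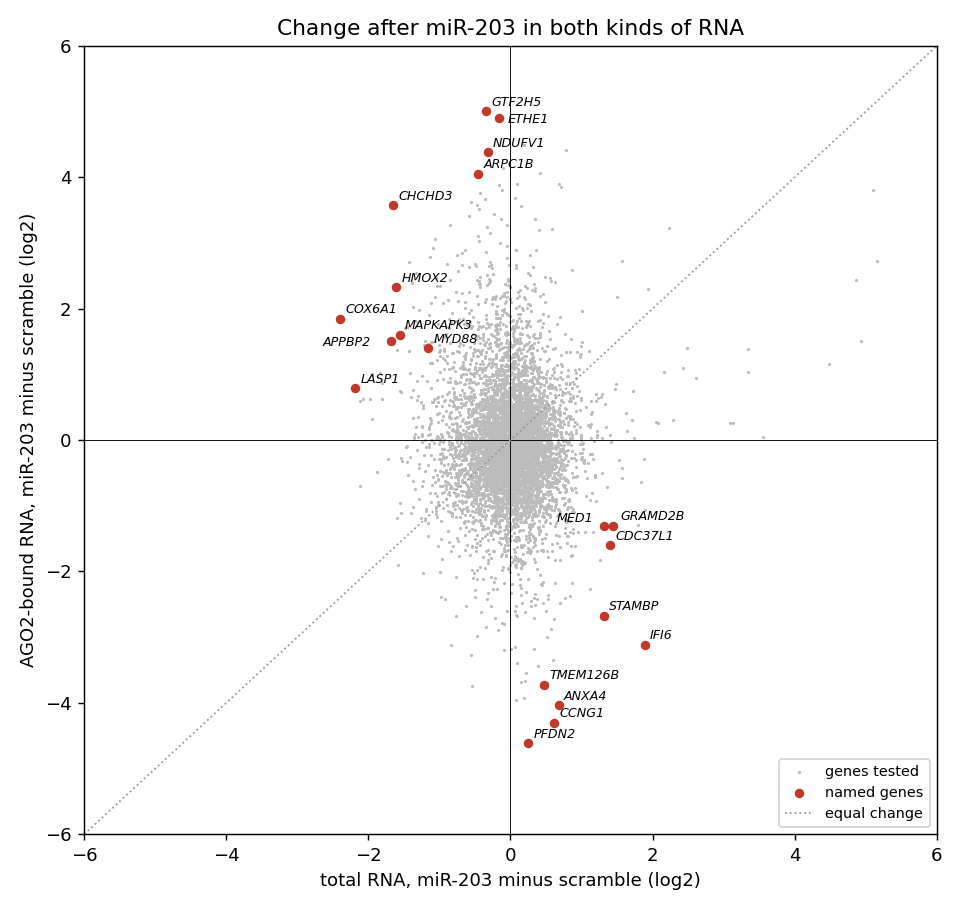
Change after miR-203 against scramble in total RNA (horizontal axis) and in AGO2-bound RNA (vertical axis), both as log2 differences of 3 arrays against 3, for the 6782 genes tested (grey) and the named genes (red); the dotted line marks equal change. CHCHD3, COX6A1, HMOX2, LASP1 and MYD88 lie at upper left, IFI6 and STAMBP at lower right, and GTF2H5 and PFDN2 far from 0 on the vertical axis alone.

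Subunits of the proteasome, which degrades ubiquitinated proteins, were higher for 15 of 30 (50%), beside 22.7% of all genes. A further 5 were lower, with a median of 0.43, against 2 higher and 6 lower in total RNA with a median of -0.07. At a filter of log2 5 the median was 0.27. The catalytic subunit PSMB6 was at 11.96, 12.08 and 11.51 after miR-203 and 8.48, 8.41 and 8.36 after scramble, a rise of 3.43 ± 0.19. PSMB4 rose by 2.15 ± 0.15 and PSMB1 by 2.10 ± 0.16, with no overlap of the groups. PSMA2 fell by 0.97 ± 0.15, PSMD12 by 0.93 ± 0.17 and PSMC2 by 0.85 ± 0.12. Against miR-205, PSMB1 did not pass the test (0.15), and 13 of 30 subunits were higher and 8 lower after miR-203. Among all genes 25.5% were higher and 27.9% lower than after miR-205.

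Subunits of single complexes went in both directions, with counts read beside 22.7% higher and 28.8% lower among all genes. Of 13 genes of prefoldin and TRiC, 6 were higher (46.2%) and 3 lower (23.1%). CCT6A rose by 1.92 ± 0.14, CCT4 by 1.53 ± 0.15 and CCT2 by 1.09 ± 0.16. PFDN2, VBP1 and PFDN4 fell, the last by 0.62 ± 0.13. In the COP9 signalosome, which trims the ubiquitin-like NEDD8 from cullins, COPS3 fell by 3.39 ± 0.18 and COPS5 by 3.18 ± 0.20, and COPS6 rose by 1.64 ± 0.16. The signalosome had 2 members higher (22.2%) and 3 lower (33.3%) of 9, near those shares, and 5 lower with the replicate block. Neither COPS3 nor COPS5 was lower than after miR-205 or miR-130a. Of 33 genes of ESCRT and endosomal sorting, 15 were lower (45.5%) and 6 higher (18.2%). The higher count was 3 without miR-203 replicate 2 or without scramble replicate 1. TSG101, of ESCRT-I, was at 7.23, 7.41 and 7.16 against 10.22, 10.93 and 10.95 and fell by 3.43 ± 0.18, and the retromer subunit VPS35 rose by 1.37 ± 0.16. Of 39 genes of vesicle coats and Golgi transport, 12 were lower (30.8%, near the share of all genes) and 6 higher (15.4%). The lower count was 7 without miR-203 replicate 1 or without scramble replicate 2. The coatomer subunit COPE rose by 2.11 ± 0.23, and COPZ1 fell by 1.26 ± 0.18.

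Cell division genes that passed the test were lower. Of 49 cell cycle genes tested, 19 were lower (38.8%, beside 28.8% of all genes) and 0 higher, with a median of -0.52, against 33 lower and 1 higher in total RNA with a median of -0.60. The median was -0.83 without miR-203 replicate 1, between -0.73 and -0.40 without other single arrays, and -0.80 at a filter of log2 5. The count of lower genes was 31 with the replicate block, 11 without scramble replicate 1 and 12 without miR-203 replicate 2. The list median over the scramble mean was -0.08, -0.82 and -0.78 on miR-203 replicates 1 to 3. On the scramble arrays it was 0.39, 0.03 and -0.43, so arrays of number 1 were the highest in both groups. After miR-205 it was -0.78, further down than after miR-203, and after miR-130a 0.27. Set directly against miR-205, 10 members were higher and 3 lower after miR-203, beside 25.5% and 27.9% of all genes. Against miR-130a 0 were higher and 35 lower, beside 26% and 29%. CCNB2, a mitotic cyclin, was at 6.0, 5.05 and 5.08 against 8.88, 8.6 and 7.59 and fell by 2.98 ± 0.38. The spindle protein DLGAP5 fell by 2.39 ± 0.31 and the kinase CDK2 by 1.77 ± 0.22. Of 11 histone genes, 6 were lower and 0 higher, with a median of -0.45, and in total RNA 4 were higher and 2 lower. H1-10 fell by 1.13 ± 0.17, and H2BC21 fell by 0.64 ± 0.15 with AGO2 and rose by 1.84 in total RNA. Many histone transcripts, though not those of every histone gene, lack poly(A) tails. Paralogs can also share probe sets, so single members are uncertain.

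Of 28 DNA replication genes, 9 were lower (32.1%, beside 28.8% of all genes) and 5 higher (17.9%, beside 22.7%). The higher count was 8 without scramble replicate 1. The clamp loader subunits RFC4 and RFC3 fell by 3.28 ± 0.24 and 2.61 ± 0.32, and PRIM2, a primase subunit, rose by 1.80 ± 0.15. RFC5, another clamp loader subunit, rose by 0.85 ± 0.15, a call lost with the mean of probe sets, since neither of its 2 further probe sets had the same sign.

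KRAB zinc finger genes, a family of repressors of transposable elements, were lower for 31 of 73 (42.5%), beside 28.8% of all genes. A further 8 were higher, with a median of -0.30, while in total RNA 18 were higher and 5 lower. Without the filter 25 of 104 were lower and 9 higher, with a median of -0.08. The median of all genes was taken with the filter only, so it is not set beside this value. Without the filter 1887 of all 11963 genes were lower and 1632 higher. At a stricter filter of log2 5, 12 of 33 were lower and 4 higher. ZNF430 was at 3.72, 3.51 and 4.07 against 5.71, 5.99 and 6.56 and fell by 2.32 ± 0.26. ZFP30 fell by 1.84 ± 0.19 and ZNF180 by 1.06 ± 0.14, whereas ZNF8 rose by 1.72 ± 0.17 and ZNF212 by 1.49 ± 0.23. Against miR-205, 51 of 73 were lower after miR-203 and 3 higher, beside 27.9% lower and 25.5% higher among all genes. ZNF180 was among the lower KRAB genes, by -4.36. Many of these genes lie near the floor and are similar in sequence, so single members are uncertain.

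Mitochondrial and ribosomal genes included large changes both ways. Of 58 genes of oxidative phosphorylation, 20 were higher (34.5%) and 13 lower (22.4%), with a median of 0.12, where NDUFV1 and COX7A2 (2.43 ± 0.20) led the rises and ATP5MC1 (-2.45 ± 0.18) and NDUFB2 (-1.25 ± 0.15) the falls. Of 47 mitochondrial ribosomal proteins, 15 were higher (31.9%) and 8 lower (17%), and 13 were lower with the replicate block. MRPS22 was at 9.07, 9.66 and 8.97 against 6.26, 6.30 and 6.45, a rise of 2.9 ± 0.17, and MRPL12 fell by 1.94 ± 0.23. Of 51 cytosolic ribosomal proteins, 14 were higher (27.5%) and 16 lower (31.4%), near the 22.7% and 28.8% of all genes. RPL36, RPS15A and RPL29 rose by 2.16, 2.11 and 2.08, and RPL27 and RPL35 fell by 2.61 and 2.48 beside RPL11. In total RNA none of RPL11, RPL27, RPL35, RPL36 and RPS15A passed the test.

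Androgen-responsive genes were lower for 10 (41.7%, beside 28.8% of all genes) and higher for 5 (20.8%, beside 22.7%) of 24, with a median of -0.16, against 14 lower and 1 higher in total RNA. The median was -0.06 without miR-203 replicate 2 and -0.39 at a filter of log2 5. KLK3, which encodes prostate-specific antigen, was at 11.0, 10.39 and 10.58 against 12.74, 12.77 and 12.51 and fell by 2.02 ± 0.17 (limma adjusted p = 4.2e-07), and in total RNA by 1.22. The 3 miR-203 arrays lay below all 3 scramble arrays and below the means after miR-205 (13.38) and miR-130a (12.39). The related protease KLK2 fell by 1.11 ± 0.29, PTGER4, a prostaglandin receptor, by 2.81 ± 0.23 and UAP1, of hexosamine synthesis, by 2.27 ± 0.19. The brightest probe set of TMPRSS2 was at 0.74 ± 0.14 with AGO2 and its other probe set at -0.44 ± 0.14, and as both passed the test (limma adjusted p = 0.021 for the latter) the gene has no settled direction here. Among 24 genes of the androgen receptor and its coregulators, 7 were higher and 5 lower, with PARK7 at 12.61, 12.65 and 12.46 against 10.02, 9.85 and 9.87.

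Stress and metabolic lists held genes of both directions, and their counts are read beside 22.7% higher and 28.8% lower among all genes. Of 24 ATF4 and amino acid response genes, 10 were lower and 5 higher, while 22 were lower in total RNA. The higher count was 3 without miR-203 replicate 3 or without scramble replicate 1 or 2. AARS1, which charges alanine tRNA, rose by 0.90 ± 0.16 with AGO2 and changed by -1.32 in total RNA, and PCK2 by 0.87 ± 0.15 and -1.80. Of 30 genes of heat shock and of the unfolded protein response, 9 were higher and 9 lower, against 18 lower and 0 higher in total RNA, with SEC61B up by 1.98 ± 0.18 with AGO2 and at -1.29 in total RNA. Of 24 genes of cholesterol and fatty acid synthesis, 10 were lower and 4 higher, and 6 were lower without scramble replicate 1. SQLE, squalene epoxidase, was at 6.96, 6.86 and 6.98 against 9.12, 9.65 and 9.30 and fell by 2.42 ± 0.16, and MSMO1 fell by 1.63 ± 0.18. Of 20 glycolysis genes, 6 were higher and 2 lower, with GPI up by 2.19 ± 0.21. Of 21 antioxidant genes, 8 were higher and 3 lower, with GPX4 up by 2.62 ± 0.22 and SOD1 by 2.15 ± 0.19. The lower count was 5 with the replicate block and 1 without any single one of miR-203 replicates 1 and 2 and scramble replicates 2 and 3.

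Lists of cell death and signalling, read beside the same shares, also held genes of both directions. Of 20 p53 pathway genes, 8 were lower and 4 higher, with CCNG1 and the death receptor FAS (-1.62 ± 0.17) lower and GADD45B (3.37 ± 0.27), PPM1D (2.62 ± 0.19) and PLK3 (2.51 ± 0.16) higher. Of 12 BCL2 family genes, 5 were lower and 3 higher, and 3 were lower without miR-203 replicate 2 or without scramble replicate 1. BID, which links caspases to mitochondria, was at 6.26, 6.68 and 6.09 against 3.26, 3.12 and 3.03, a rise of 3.21 ± 0.17, and PMAIP1, which encodes NOXA, fell by 1.62 ± 0.20. Of 14 immediate early genes, 7 were lower and 3 higher, with ATF3 (-1.96 ± 0.24) and KLF6 (-1.83 ± 0.17) lower and CCN1 (1.61 ± 0.24) higher. Of 30 genes of ERBB, RAS, MAPK and PI3K signalling, 7 were higher and 5 lower, with MAPK9 up by 1.27 ± 0.16 and ARAF down, at -1.11 ± 0.13. The lower count was 8 with the replicate block and 3 without miR-203 replicate 1. Of 21 TGF-beta and BMP genes, 6 were lower and 2 higher, with TGIF1 at -2.48 ± 0.15. ID2 was higher at 2.64 ± 0.24, and the call of ID3, the other higher gene, was lost without any single one of miR-203 replicates 2 and 3 and scramble replicates 1 and 2.

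Genes of the microRNA pathway itself were higher for 9 and lower for 5 of 25 (36% and 20%, beside 22.7% and 28.8% of all genes). Their median was 0.03 and ranged from -0.01 to 0.11 when single arrays were left out. The lower count fell to 2 without miR-203 replicate 2 or scramble replicate 3 and to 3 without miR-203 replicate 1. The decapping scaffold EDC4 rose by 0.86 ± 0.14, PRKRA, a partner of Dicer, by 0.80 ± 0.21 and TNRC6B, a GW182 protein, by 0.77 ± 0.21. Beside DICER1, PABPC1, the poly(A)-binding protein, fell by 0.71 ± 0.13 and the uridylyl transferase TUT4 by 0.67 ± 0.21. The call of TUT4 was lost without miR-203 replicate 2 or scramble replicate 3.

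The remaining lists lay near the shares of all genes in at least one direction. Of 43 spliceosome genes, 16 were higher and 13 lower, and 8 were lower without scramble replicate 1, with SRSF5 at 2.28 ± 0.15 and PRPF6 at -1.73 ± 0.23. Of 38 translation factors, 10 were higher and 8 lower, with EIF3G at 2.38 ± 0.22 and EIF3J at -1.52 ± 0.18. Of 13 genes of MHC class I antigen processing, 5 were higher and 4 lower, and 3 were higher without miR-203 replicate 2 or without scramble replicate 1 or 2, with PSMB10 at 2.46 ± 0.21 and TAP1 at -0.66 ± 0.14. Of 20 genes of epithelial junctions, keratins and epithelial to mesenchymal transition, 6 were higher and 5 lower, with CTNNA1 at 2.46 ± 0.28, CLDN3 at 2.36 ± 0.18 and TJP1 at -1.33 ± 0.24. The lower count was 8 with the replicate block, 2 without miR-203 replicate 1 and 3 without miR-203 replicate 2 or scramble replicate 2 or 3.

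**Figure D5:**
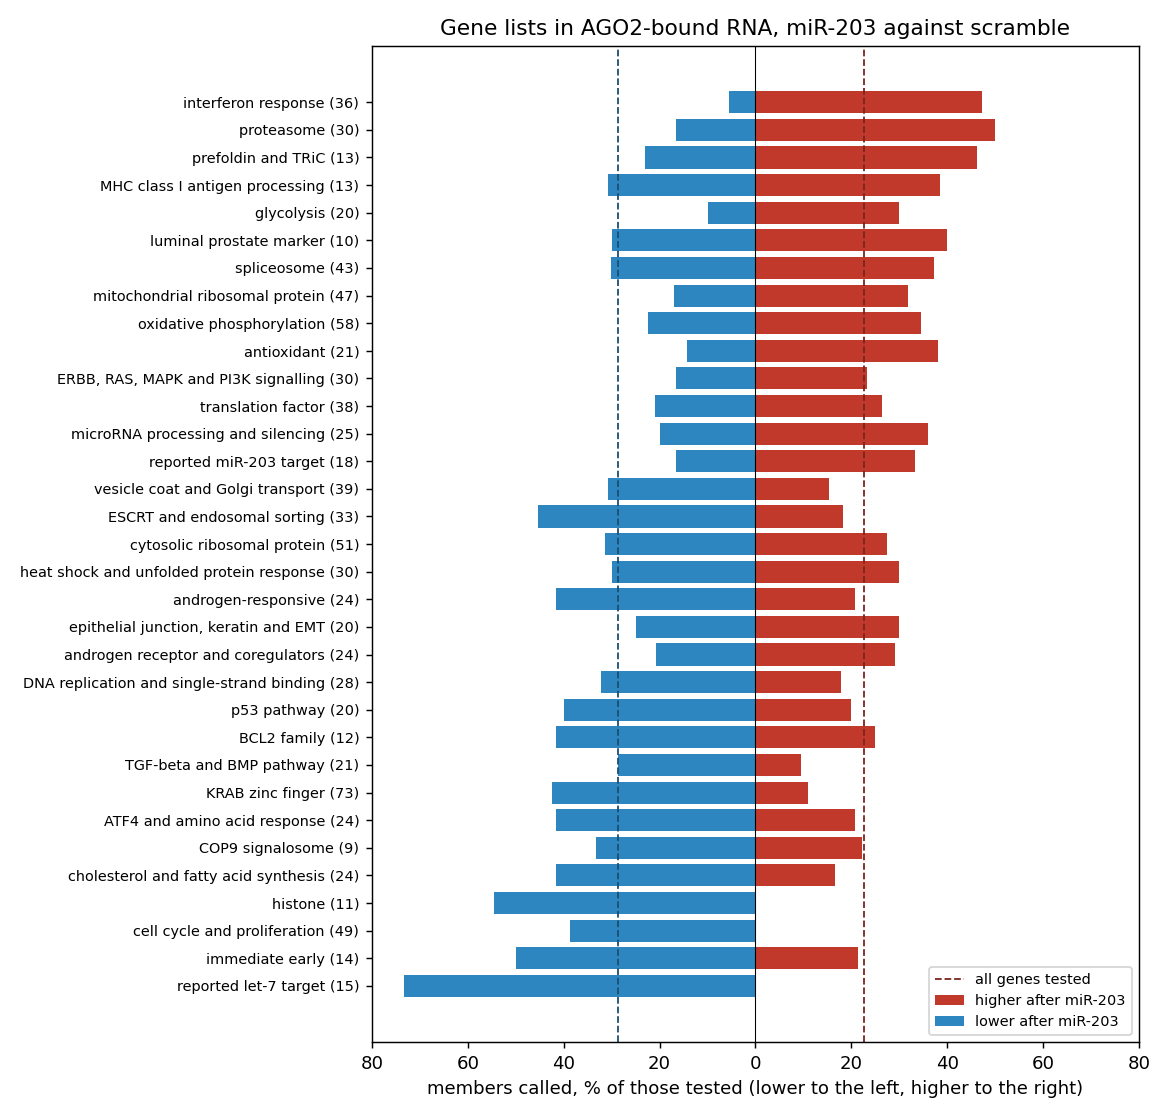
Share of tested members (horizontal axis, %) called higher (right, red) or lower (left, blue) in AGO2-bound RNA after miR-203 against scramble by limma at an adjusted p under 0.05, for each list with at least 5 tested members (number tested in brackets), ordered by median change. Dashed lines mark the shares of all 6782 genes (22.7% higher, 28.8% lower), and the let-7 targets, cell cycle and histone lists have no bar to the right.

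Where a called gene had further probe sets above the filter, these mostly pointed the same way. Of 718 further probe sets of 512 higher genes, 640 (89.1%) had the same sign, and 19 passed the test in the opposite direction. Of 897 further probe sets of 643 lower genes, 783 (87.3%) had the same sign, and 19 passed the test in the opposite direction. For genes changed at least 2-fold the shares were 94.9% and 96.7%.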

How the data were processed

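RNA bound to AGO2 was measured on Affymetrix oligonucleotide arrays, per the labels. What the authors deposited are log2 values, 1 per probe set, already normalized. R 2.9.0 is named, as are GCRMA and RMA, per the submitters' processing notes, which do not say how they were combined. Of 22277 probe sets, 19064 had 1 gene symbol, 1043 several and 2108 none here, and 62 were controls. For each of 11963 genes the brightest probe set (by its mean across the 24 arrays) was kept, and 6782 with a mean of at least 2.85, the median of all probe sets, were tested. Symbols of 19052 probe sets matched the reference gene table.

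Genes were tested with lmFit and eBayes of limma 3.58.1 (R 4.3.3) on the 12 AGO2-bound arrays without a block, two-sided, with Benjamini-Hochberg adjustment over all genes. Changes are log2 differences ± SE, 3 arrays against 3. Total RNA was fitted on its 12 arrays, and the difference of changes on all 24. The number of arrays limits the precision, and no read depth applies. The fit was tested on simulated data.

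The text names the 10 strongest rises and 10 strongest falls without overlap of the groups, up to 5 each way with a group at the floor, up to 3 rises and 3 falls with the smallest p per list, every tested reported miR-203 target, KLK3 and the 5 largest differences from total RNA each way; other let-7 and interferon members were named in addition. The members, the 35 lists and the rules were chosen with earlier results of these data known. The AGO2 gene was not analysed here.

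Replicate numbers 1 to 3 are shared by both groups. Deviations from the group means of same-numbered arrays correlated at 0.58, 0.16 and 0.44 over genes, so the numbers are taken to pair the arrays. This comes from the values, since no source states a pairing. The main fit of AGO2-bound RNA and the main difference of changes hold no block. Their SE, p-values and counts therefore leave this pairing out. With the block 1802 genes were higher and 2368 lower in AGO2-bound RNA, against 1537 and 1950 in the main fit. Alternatives were a filter, probe set, scaling, prior, weights, arrays in the fit, threshold, block and single arrays left out; leaving out total scramble replicate 1 was chosen after seeing the data.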

Additional observations from a re-analysis of the deposited data

Results flagged for a closer look

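The changes after miR-203 differed between AGO2-bound and total RNA for 1500 genes in the upward and 1829 in the downward direction, in the limma contrast of both changes. Among named genes with this difference, the AGO2 change exceeded the total RNA change by 5.35 for GTF2H5, 5.23 for CHCHD3, 5.07 for ETHE1, 4.70 for NDUFV1, 4.51 for ARPC1B, 4.24 for COX6A1, 3.93 for HMOX2, 3.19 for APPBP2 and 3.16 for MAPKAPK3. For the reported miR-203 targets LASP1 and MYD88 the excess was 2.97 and 2.56. The difference was negative for IFI6 (-5.01), CCNG1 (-4.92), PFDN2 (-4.86), ANXA4 (-4.71), TMEM126B (-4.19), STAMBP (-3.99), CDC37L1 (-3.0), GRAMD2B (-2.74) and MED1 (-2.62). Without total scramble replicate 1 these differences ranged from -4.93 to 5.29, and each still passed the test.

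Probe sets that the gene comparison left out also carried signal. Of 579 probe sets with several gene symbols, 167 were higher and 150 lower after miR-203 (54.7% in all), and of 641 unnamed here, 157 were higher and 155 lower (48.7%), against 51.4% of the genes tested. They were not assigned to genes. Groups of 3 arrays were too small for a search for single outlying arrays.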

How the results depend on the processing

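The counts of genes higher and lower in AGO2-bound RNA stayed within 1.5 times of 1537 and 1950 under every alternative of probe set, scaling, spread prior, array weights and arrays in the fit. When single arrays were left out, 1309 to 1450 were higher and 1586 to 1843 lower. The filter alternatives change the number of genes tested, so their counts do not show whether the share called was stable. Without the filter 1632 of 11963 genes were higher and 1887 lower, against 1537 and 1950 of 6782. Asking for at least 2-fold gave 686 and 633. With the replicate number as a block, 1802 were higher and 2368 lower, and the difference of changes called 1651 and 2070. Beside the list counts given above, among the named genes and all tested let-7 and interferon members no call was lost to the block, and 7 were gained (SRC, TBK1, ARID3A, BACH1, OAS3, IRF9 and TRIM21). Quantile normalization and median centring moved the median of all genes from -0.09 to -0.08 and -0.05. Of the 222 genes called among the named, let-7 and interferon genes, 197 kept the call under each of the 14 to 16 alternatives that could be fitted for them, 25 lost it under at least 1, and none changed sign. TMEM259 and GCLM lost it under 8 each, CCL5 under 7, and SLC7A11, ID3 and KLF4 under 6 each. An offset between normalization runs was not tested. Matches to the miR-203 seed, listed as an analysis, could not be run on the files used here.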
